A study of Rangifer tarandus with 4 samples.

Results

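A nested gene is a gene whose whole body lies inside an intron of another gene, called its host. In the cattle (Bos taurus) gene annotation deposited with the series, 497 protein-coding genes with a transcript of at least 2 exons were nested in this way, or 2.60% of 19123 multi-exon protein-coding genes. The annotation held 21880 genes in all. A member was taken where its gene line, from first to last base, lay inside the gene line of another protein-coding gene and shared no base with the merged exons of that host on either strand. The 497 members lay in 394 introns of 376 hosts. Another 202 multi-exon genes lay inside the gene line of a second gene but touched its exons with their own line, and 69 of these shared no base between exons. The study behind the annotation sequenced single mononuclear blood cells of reindeer (Rangifer tarandus) from their 3′ ends, 3 days after wounding. Blood was drawn at the antler velvet, distally (antler, 2 libraries), and at the saphenous vein (back, 2 libraries), and separate animals are not stated. Counts of these cells were not analysed here, and the text therefore holds no expression level, depth or contrast of antler with back. Coordinates are on the cattle assembly ARS-UCD1.2, count from 1 and are not reindeer coordinates. The values below describe a complete list of gene models, which are not replicates, so no test was made. The 95% intervals (exact for shares, order-statistic for medians) take each gene as independent and reflect counting error alone.

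Transcription of a host runs through the nested gene, so the DNA of the nested gene is copied into the host's primary transcript before the intron is spliced out. A nested gene on the opposite strand gives an RNA complementary to that intron, whereas one on the same strand gives an RNA with the same letters. In single-cell 3′ libraries this matters for where a read is counted, since a read inside a host intron can also lie in an exon of the nested gene. Retrocopies made from spliced RNA usually lack introns, so nested genes with introns of their own are a class apart from single-exon insertions.

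Members lay more often on the opposite strand than on that of the host. Of the 497 members, 202 (40.6%, 95% exact interval 36.3% to 45.1%) ran in the direction of the host and 295 (59.4%) ran against it. Neighbouring protein-coding genes, ordered by start, shared a strand in 51.0% of 21733 pairs. The strand split went with whether the gene carried a symbol. Of 188 members with a symbol, 50 lay on the strand of the host (26.6%, interval 20.4% to 33.5%), against 152 of 309 members without a symbol (49.2%, interval 43.5% to 54.9%). Where both the member and its host carried a symbol, 36 of 159 members shared the strand (22.6%). Where the host carried none, 64 of 118 did (54.2%).

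Single-exon genes nested by the same rule showed a different split. There were 364 of them, or 13.3% of 2738 single-exon protein-coding genes, and 0 of 364 lay on the strand of the host (3 counts would be a share of 0.824%). When host exons were disregarded, 403 single-exon gene lines lay inside another gene line and 0 of them shared its strand. Among members, the same strand held 42.6% of genes with 2 exons (89 of 209), 35.8% with 3 exons (44 of 123), 47.4% with 4 to 5 exons (45 of 95), 27.1% with 6 to 9 exons (13 of 48) and 11 of 22 genes with 10 or more exons. The share thus did not move steadily with exon number, and the step lay between 1 exon and 2. Whether this step comes from the genome or from how gene models were made was not tested.

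**Figure D1:**
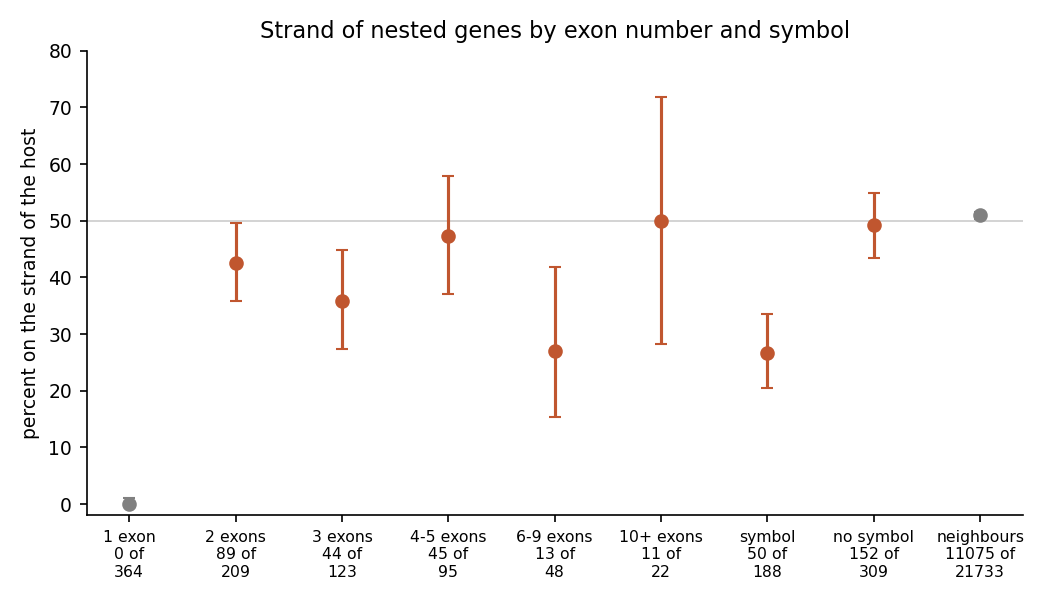
Percent of nested genes on the strand of their host, by number of exons and by presence of a symbol, with 95% exact intervals; counts stand under each group. Grey points are comparison groups: single-exon nested genes at 0 of 364, and neighbouring protein-coding genes, of which 51.0% of pairs shared a strand.

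The host introns were long. Counted once per member, the median host intron measured 37969 bases (interval 32368 to 42838), with quartiles of 15742 and 88542 bases and a range from 1242 to 545805 bases. Counted once each, the 394 introns that held a member had a median of 28265 bases. All 184599 introns of multi-exon protein-coding genes, read as the gaps between merged exons, had a median of 1304 bases, and the 5272 introns of the hosts had a median of 2333 bases. Introns at least as long as the median host intron made up 2.33% of all introns but held 37.0% of all intron bases. Same-strand members lay in introns with a median of 44240.5 bases (interval 35677 to 51549) and opposite-strand members in introns with a median of 33880 bases (interval 29470 to 40753), so the intervals of the groups overlapped. With 1 member per host the medians were 28094 and 28201 bases. In introns that held 1 or 2 members the order turned likewise, with 25000 bases on the same strand and 27443.5 bases on the opposite strand. The same held for members with a symbol, whose medians were 90983.5 and 38032 bases over all introns but 22839 (n = 21) and 26110 bases (n = 103) in introns with 1 or 2 members.

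**Figure D2:**
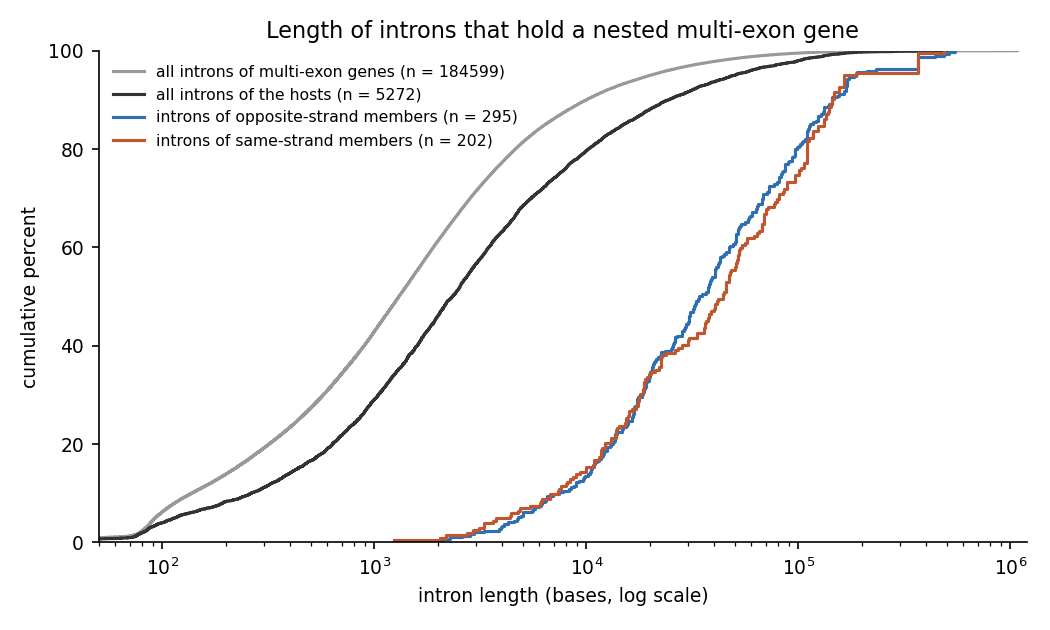
Cumulative percent by length in bases, on a log axis, of all introns of multi-exon protein-coding genes and of the hosts, each counted once, and of the introns that hold a member on the opposite or the same strand, counted once per member. The curves of the members lie close together and to the right of both sets of introns, with medians of 33880 and 44240.5 bases against 2333 and 1304 bases.

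Longer introns held a member more often, while their number per megabase depended on how introns with several members were counted. No intron shorter than 1 kb held a member. Of introns from 1 to 5 kb, 0.0423% held a member, and the share was higher in each longer class, up to 7.45% of the 94 introns of at least 200 kb. Per megabase of intron there were 0.181 members from 1 to 5 kb, 0.584 from 5 to 20 kb, 0.632 from 20 to 50 kb, 0.680 from 50 to 100 kb, 0.822 from 100 to 200 kb and 0.729 from 200 kb upward. The last class holds 22 members, of which 15 share a single intron of SORCS3; without that intron it had 0.235 members per megabase, a value added after seeing the data. Introns with a member, counted once each, numbered 0.547, 0.585, 0.467, 0.444 and 0.232 per megabase in the classes from 5 kb upward.

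**Figure D3:**
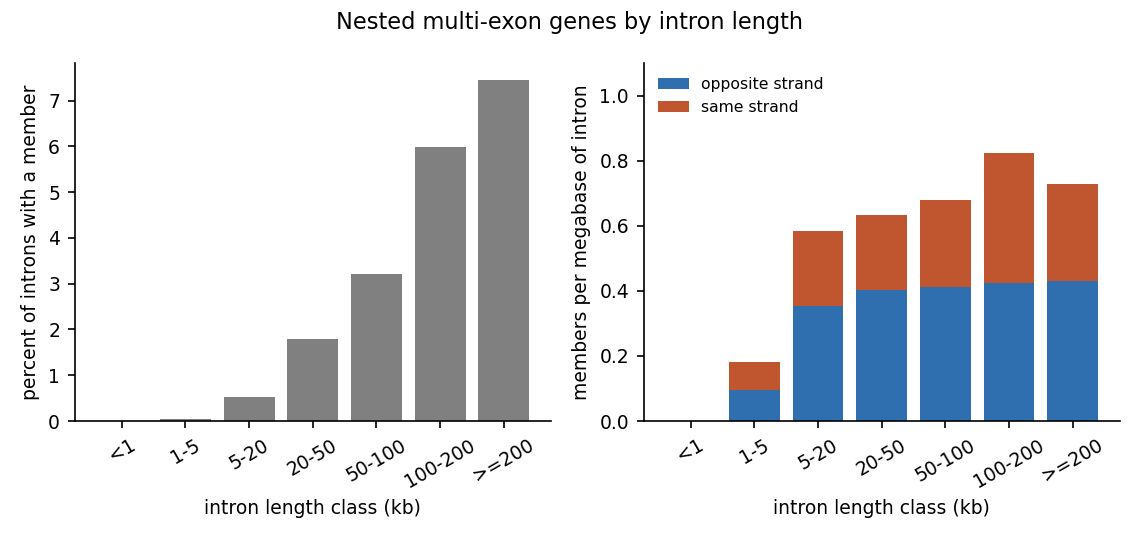
Left, percent of introns that hold at least 1 member; right, members per megabase of intron, stacked by strand. Both are plotted by intron length class in kb: the left panel climbs to 7.45%, while the right panel runs from 0.584 to 0.822 in the classes above 5 kb, with 15 of the 22 members of the last class in a single intron.

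Within the host, members sat in the longest intron in most cases. Among hosts with at least 2 introns, 324 of 471 members lay in the longest (68.8%, interval 64.4% to 73.0%), and that intron held a median of 42.7% of all intron bases of those hosts. The first intron held 109 of 471 members (23.1%) and a median of 12.8% of the intron bases per host, and the last intron held 68 members (14.4%). Both medians count each host once, whereas the shares count each member, so the medians are not the shares expected from intron bases. Over hosts, the quartiles were 31.0% and 64.5% for the longest intron and 3.08% and 34.7% for the first. These shares were close on both strands: 69.5% of same-strand and 68.3% of opposite-strand members lay in the longest intron. Of the 497 members, 446 (89.7%) lay in an intron between coding parts of the host, 46 (9.26%) in an intron ahead of the host's start codon and 5 (1.01%) in an intron after its stop codon. For all annotated introns of at least 20 kb these shares were 84.6%, 15.0% and 0.411%, and for annotated introns of any length 95.1%, 4.30% and 0.579%. Members lay in introns both shorter and longer than 20 kb, so neither set matches them in length. A member counted as lying between coding parts if any host transcript that spanned it placed it there, whereas each annotated intron was classed by its own transcript.

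Members filled a small part of the intron, and most lay more than 1000 bases from a host exon. The median member covered 12.3% of its intron (interval 10.3% to 14.3%), with 9.21% on the same strand and 14.4% on the opposite strand. The midpoint of a member lay at a median of 0.52 of the intron's length, counted from the upstream host exon, with quartiles of 0.322 and 0.697. A midpoint cannot reach the end of an intron, and whether these positions differ from random placement was not tested. The nearest host exon was a median of 5503 bases away. It lay within 1000 bases for 70 members (14.1%) and within 100 bases for 8 (1.61%). For same-strand members the distance to the next host exon downstream, where transcription of the member would run on, had a median of 15020 bases.

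Nesting often rested on a single transcript of the host. All 497 members lay inside an annotated intron of at least 1 host transcript. For 189 members (38.0%) the host had 1 transcript. Of the other 308, 123 (39.9%) lay inside an intron of only 1 of the host's transcripts, and in introns holding 3 or more members this was 31 of 58 (53.4%).

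Members were short genes with few exons. Their median span was 3535 bases against 18550 bases in all multi-exon protein-coding genes, their median exon number 3 against 8, and their median coding length 654 against 1245 bases. Genes with 2 exons made up 42.1% of members and 10.9% of multi-exon genes. The share of multi-exon genes that were members went from 10.00% of genes with 2 exons and 7.07% of genes with 3 to 3.09% with 4 to 5, 1.06% with 6 to 9 and 0.287% with 10 or more. The hosts had a median span of 83311 bases, a median of 10 exons and a median longest intron of 37304.5 bases.

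Most members carried no symbol. A symbol was given for 188 of 497 (37.8%), against 84.0% of multi-exon protein-coding genes and 81.6% of the hosts. Same-strand members carried a symbol in 24.8% of cases and opposite-strand members in 46.8%. Of multi-exon genes without a symbol 10.1% were nested, against 1.17% of those with a symbol, and the gap stood within genes of 2 exons (14.3% against 5.38%) and of 3 exons (12.5% against 4.04%). Members with a symbol were larger, with a median span of 5777.5 bases and a coding length of 1005 bases, against 2482 and 489 bases in those without.

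A 3′ untranslated region (UTR), which a 3′ library reads, was annotated for 189 of 497 members (38.0%), against 72.9% of multi-exon protein-coding genes. Members also carried a symbol less often (37.8% against 84.0%), so these shares differ in that mix too. Taken apart by symbol, the share was 81.4% in members with a symbol beside 82.1% of all multi-exon genes with a symbol. In members without a symbol the share was 11.7%, beside 24.1% of all multi-exon genes without. Among members with a symbol it was 78.0% on the same strand (39 of 50) and 82.6% on the opposite strand (114 of 138). The median length of the 3′ UTRs present was 456 bases in members and 642 bases in multi-exon genes.

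Related genes were nested in related hosts in 4 families, each on the opposite strand throughout. They were found by the letters that start the symbols of member and host; zinc finger genes inside zinc finger genes, which fall under the same rule, are described with their list. The leucine-rich repeat proteins LRRTM1, LRRTM2 and LRRTM3, which organise synapses, lay in introns of the alpha-catenin genes CTNNA2, CTNNA1 and CTNNA3, which link cadherins to actin. LRRTM1 (ENSBTAG00000054157, chromosome 11, 55211496 to 55214132, plus strand) sat in intron 6 of 18 of CTNNA2, the longest host intron of all with 546 kb, and covered 0.483% of it. LRRTM3 (ENSBTAG00000016885, chromosome 28, 23365381 to 23574789, plus strand) spanned 209409 bases, more than any other member, and covered 43.0% of intron 6 of 16 of CTNNA3, of 487 kb. LRRTM2 (ENSBTAG00000014192, chromosome 7, 50189492 to 50193541, minus strand) lay in the 60.2 kb intron 10 of 20 of CTNNA1.

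The membrane proteins LRTM1 and LRTM2 lay in genes of calcium channel alpha2delta subunits. LRTM1 was in intron 28 of 38 of CACNA2D3 (63.2 kb) and LRTM2 in intron 25 of 33 of CACNA2D4 (25027 bases), where it covered 55.4% of the intron. The secreted angiopoietin-like proteins ANGPTL2 and ANGPTL1 lay in RALGPS1 (intron 10 of 21, 107 kb) and RALGPS2 (intron 8 of 19, 41.9 kb), which encode exchange factors for Ral GTPases. INSYN2A and INSYN2B, genes of inhibitory synapse factors, lay in DOCK1 (intron 27 of 52, 128 kb) and DOCK2 (intron 31 of 59, 143 kb), exchange factors for Rac; DOCK2 is the form of blood cells. Another angiopoietin-like gene, named after its value was seen, lay in an unrelated host: ANGPTL7 in MTOR (33.9 kb), on the opposite strand.

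Of 20 lists of genes by function, the leucine-rich repeat membrane proteins and the G protein-coupled receptors had the largest shares of nested genes. The lists are families of symbols and cover 82 of the 188 members with a symbol. All 188 make up 1.17% of 16071 multi-exon genes with a symbol. Of 77 leucine-rich repeat membrane proteins 7 were nested (9.09%, interval 3.73% to 17.8%), all on the opposite strand. Beside the 5 genes above they were LRRC18 in WDFY4 (30.9 kb) and LRRC19 in IFT74, a ciliary transport gene (19.0 kb). A place in the membrane was not examined for each gene of this list, which goes by symbol. It leaves out LRFN4, which is counted below with the synaptic genes. Of 172 receptors outside the nose 11 were nested (6.40%, interval 3.24% to 11.2%), with 9 on the opposite and 2 on the same strand. These receptor members had a median of 2 exons against 4 in the whole list, and the named genes with 2 exons had a share of 5.38%.

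Several nested receptors are known from blood cells. GPR183, the oxysterol receptor that guides B cells (ENSBTAG00000032084, chromosome 12, 76165404 to 76180037, minus strand), and GPR18 shared intron 5 of 10 of UBAC2, which measured 72.5 kb and was spanned by all 5 host transcripts. GPR171 and P2RY14, a receptor for UDP-sugars, shared intron 17 of 45 of MED12L, a gene of the Mediator complex, with 167 kb and all 5 host transcripts. GPR17 lay in LIMS2 (10.8 kb), F2RL2, a protease-activated receptor, in IQGAP2 (15.7 kb), the serotonin receptor HTR2B in the proteasome gene PSMD1 (28.7 kb), and GPR146 in C25H7orf50 (50.7 kb). The same-strand receptors were GPR21 in RABGAP1 (51.7 kb) and GPR142 in GPRC5C (164 kb), itself a receptor gene. All 11 had an annotated 3′ UTR, the longest of 2329 bases in GPR142.

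Cytokine and chemokine genes were nested in 6 of 181 cases (3.31%), all on the opposite strand and all with a 3′ UTR. CXCL10 (ENSBTAG00000001725, chromosome 6, 90882124 to 90884526, minus strand) and CXCL11, interferon-induced chemokines, lay together in the first intron of ART3, of 95.9 kb, which was ahead of the host's start codon and belonged to 1 of 5 host transcripts. CXCR6, a chemokine receptor of T cells, lay in intron 14 of 17 of FYCO1 (19.2 kb), present in all 5 host transcripts. CCL4 lay in an 81.4 kb intron of CCL3, another chemokine gene, which belonged to 1 of 2 host transcripts. IFNK, an interferon of keratinocytes, lay in MOB3B (72.4 kb), and TGFB1, which controls growth and repair, in an unnamed host (ENSBTAG00000054384, 52.7 kb).

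Of 93 markers of leukocytes and other blood cells 3 were nested (3.23%), the T cell receptor chains CD3E, CD3D and CD3G. They shared the first intron of MPZL2, of 132 kb, with the ubiquitin ligase gene UBE4A, and 1 of 2 host transcripts spanned them. CD3D ran with the host and the other 3 against it. The interferon-induced genes IFIT1, IFIT2 and IFIT3 lay in the first intron of LIPA, the lysosomal acid lipase gene, of 86.9 kb, ahead of its start codon, on the opposite strand and in 1 of 3 host transcripts. Other members of interest for blood were picked after their values were seen. FGL2, a fibrinogen-like protein of T cells, lay in CCDC146 (59.2 kb), VSIR, an inhibitory receptor of T cells, in CDH23 (38.0 kb), and IGSF6, an immunoglobulin superfamily protein, in METTL9 (20.7 kb).

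Zinc finger genes were nested in 11 of 365 cases (3.01%), 3 on the same and 8 on the opposite strand. An unnamed host on chromosome 18 (ENSBTAG00000050438) held 2 genes with the symbol ZNF383 on its own strand and ZNF793 on the other, in an intron of 144 kb. ZNF234 in ZNF226, ZNF784 in ZNF524 and ZNF135 in ZNF329 were zinc finger genes inside zinc finger genes, with the first on the same strand, in introns of 9.28, 10.5 and 16.9 kb. ZSCAN30 in ZNF397, a pair whose symbols start with other letters, was likewise of this list on both sides. It lay on the opposite strand in an intron of 40.6 kb. Near-identical members of this family can share reads, and their similarity was not examined here. Among all pairs where both carried a symbol, 12 of 159 members began with the same letters as their host, among them IQCF1 and IQCF5 in IQCF2, RNASE6 in RNASE1, and HOXA4 in HOXA3.

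Of 72 genes listed by symbol as protease inhibitors 4 were nested (5.56%). The list leaves out LXN, a nested carboxypeptidase inhibitor, and the nested gene PTI, both described below, so its count is not that of all such members. SERPIND1, heparin cofactor II, covered 62.2% of a 10.6 kb intron of the lipid kinase gene PI4KA, and SERPINA5 lay on the same strand in SERPINA3-1, a gene of its own family. WFDC10A and WFDC18 lay in an unnamed host and in CCL3. Of 307 genes listed by symbol under cilia and sperm 8 were nested (2.61%), 5 of them on the same strand, among them DNAI2, a dynein chain, in GPRC5C. The others of these 5 were ADAM20, ADAM8, CCDC97 and ODF3. A role in cilia or sperm was not examined for each gene, so the strand split is one of symbols. Lists below or near the share of all named genes were ion channels (2 of 236, KCNJ13 in GIGYF2 and TRPC5OS in TRPC5), solute carriers (2 of 397, SLC16A6 in ARSG and SLC26A1 in IDUA), transcription factors (2 of 217, POU5F1 and HOXA4), small GTPases and their regulators (1 of 304, RAB8B), RNA handling (1 of 289, EXOSC5) and oxidative phosphorylation (1 of 106, COX8B). TRPC5OS was listed by the letters of its symbol, which repeat those of its host, and not for a channel function. The ubiquitin system had 6 of 418, adhesion and matrix 3 of 233, with the growth plate collagen COL10A1 in NT5DC1, synaptic genes 2 of 100, with LRFN4 in PC, and placeholder symbols 12 of 828. The adhesion and matrix list goes by symbol and leaves out the nested matrix genes OGN, OMD, ASPN and ECM2, described below, so its count is not that of all such members. No member came from 361 kinases and phosphatases, 167 ribosomal protein genes or 28 chemosensory receptors.

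**Figure D4:**
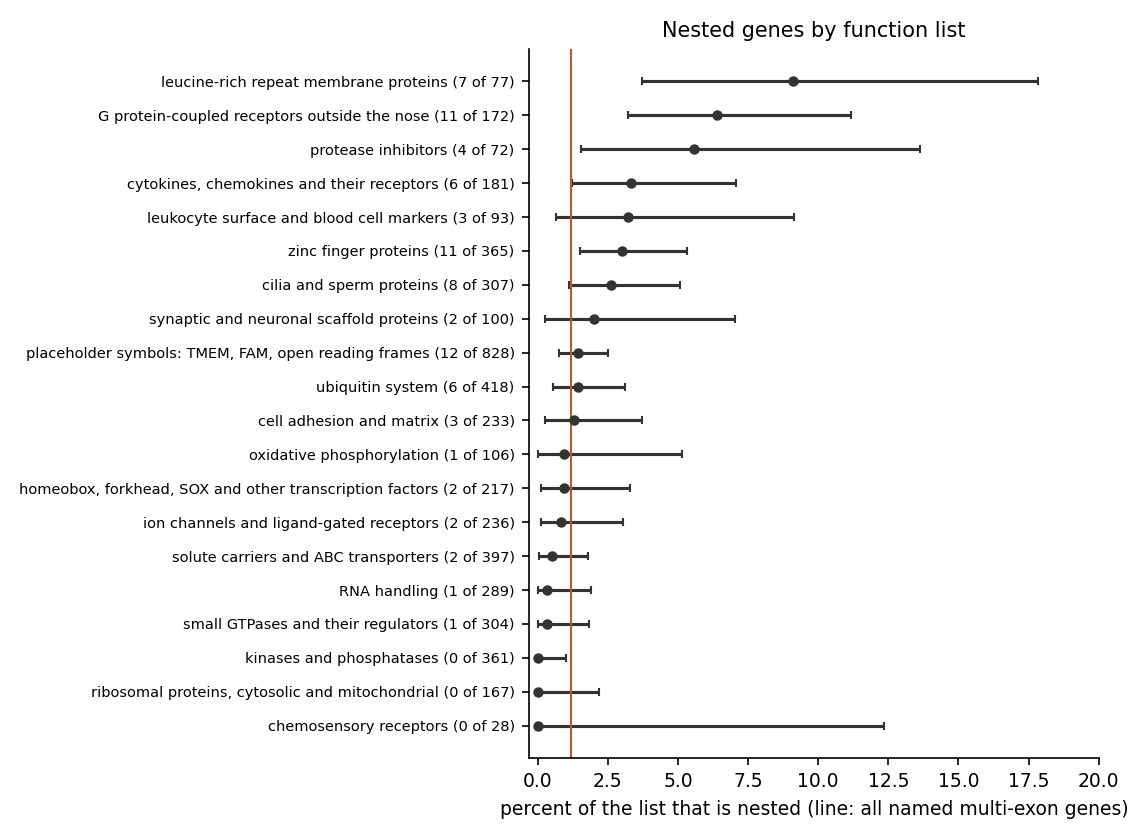
Percent of each function list's multi-exon genes that were nested, with 95% exact intervals and counts; the line marks 1.17%, the share of all multi-exon genes with a symbol. Leucine-rich repeat membrane proteins (9.09%) and G protein-coupled receptors (6.40%) stand highest, and 3 lists stand at 0.

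Among the function lists, adhesion and matrix genes, small GTPases and zinc finger genes each gave 11 hosts. Of 307 hosts with a symbol, 11 (3.58%) were adhesion and matrix genes, against 1.45% of all named multi-exon genes, among them NLGN1, DSCAM, NEGR1 and OPCML. Another 11 were small GTPases or their regulators (3.58% against 1.89%) and 11 were zinc finger genes (3.58% against 2.27%), a list that also held 11 members. Placeholder symbols gave 13 hosts (4.23% against 5.15%) and the ubiquitin system 8 (2.61% against 2.60%). A further 8 hosts were kinases or phosphatases (2.61% against 2.25%). The synaptic list gave 6 hosts (1.95% against 0.622%), but CTNNA1, CTNNA2 and CTNNA3 among them are also counted with the adhesion and matrix genes. Host length was not taken into account in these shares.

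Some introns held a block of genes. In 22 introns there were 3 or more members, 99 in all, of which 64.6% carried a symbol and 50.5% (50 of 99) lay on the strand of the host. In the other introns 31.2% carried a symbol and 38.2% shared the strand; among members with a symbol the same-strand share was 45.3% in the blocks (29 of 64) and 16.9% elsewhere (21 of 124). The largest block lay in intron 2 of 26 of SORCS3, a sorting receptor gene with 1 transcript (chromosome 26, 25203123 to 26181296, plus strand). Its 15 members, 8 with and 7 against the host, had spans that added up to 34.0% of 368 kb. They included ADAM8, ECHS1, MTG1, PAOX, CALY, SPRN and TUBGCP2. NBAS (chromosome 11, 82736891 to 83207199) held 9 members in introns 23 and 24, among them SIRT3, RIC8A, PSMD13, NLRP6 and COX8B. An unnamed host on chromosome 18 (ENSBTAG00000054384), with 26 exons and a coding length of 435 bases, held 10, among them TGFB1, BCKDHA, EXOSC5 and B3GNT8. An unnamed host on chromosome 23 (ENSBTAG00000007075) held POU5F1, a transcription factor of pluripotent cells, with CDSN, CCHCR1 and TCF19 in 110 kb. Whether these blocks lie in the same place in reindeer was not tested.

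A block of small proteoglycan genes lay wholly on the opposite strand. OGN, OMD and ASPN, which encode osteoglycin, osteomodulin and asporin of the bone and cartilage matrix, and the matrix gene ECM2 shared intron 5 of 7 of the centromere gene CENPP. This intron measured 169 kb and was spanned by both host transcripts, and the spans of its members added up to 52.6% of it. In the first intron of GPRC5C, the spans of DNAI2, KIF19, BTBD17 and GPR142 added up to 74.2% of 164 kb. KIF19 and BTBD17 overlap and their shared bases count for each, so the part filled is smaller. KIF19 and BTBD17 were themselves hosts, as were PGGHG in NBAS, ULBP13 and 1 unnamed gene; PGGHG held IFITM5 in an intron of 4.09 kb. In all, 22 members lay inside more than 1 host.

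**Figure D5:**
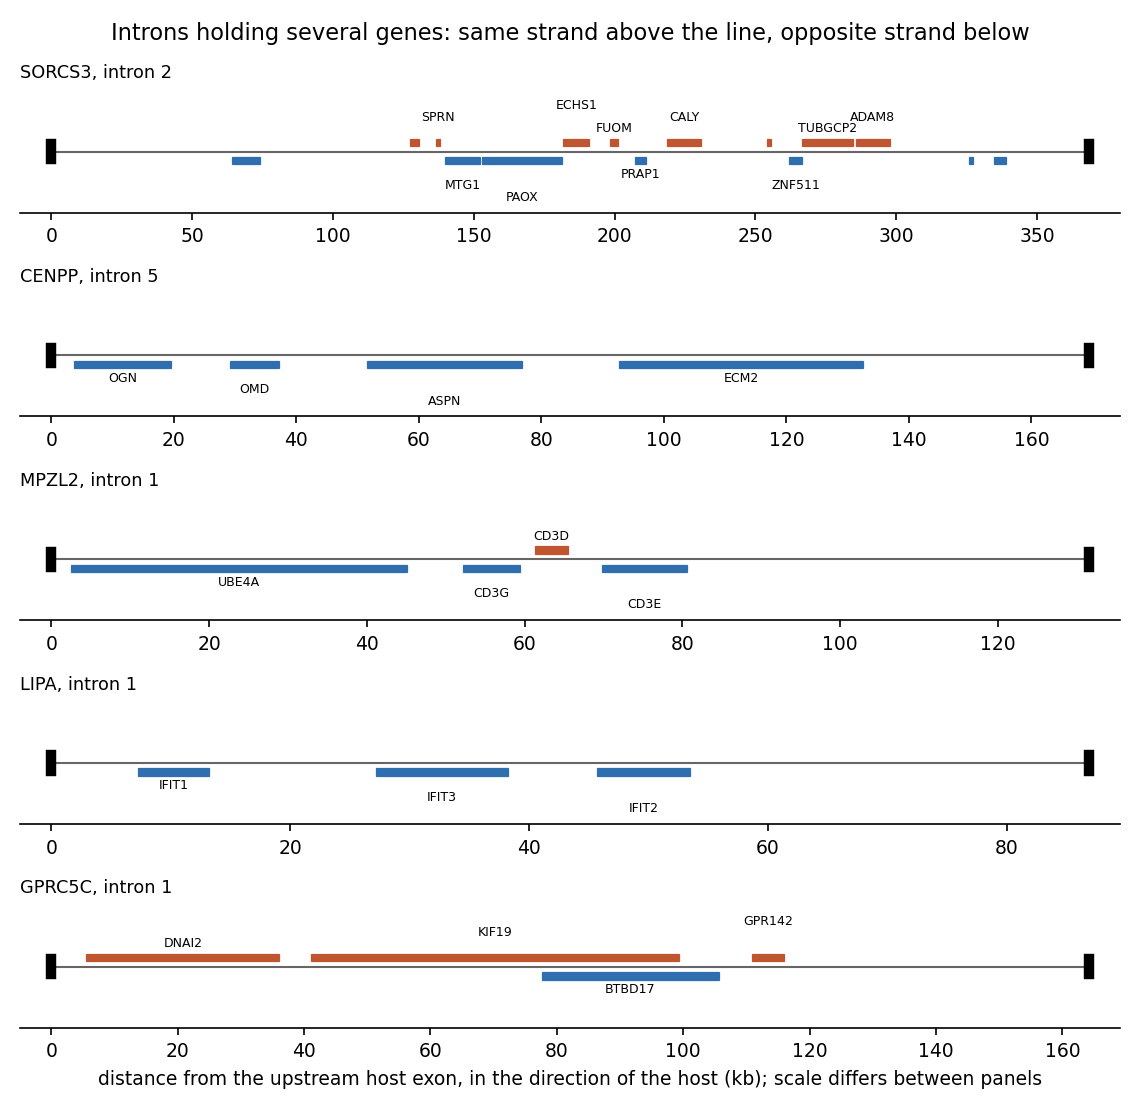
Members in 5 introns that hold several genes, by distance in kb from the upstream host exon in the direction of the host; black blocks mark the flanking host exons, bars above the line run with the host and bars below run against it. All members in CENPP and LIPA lie below the line, whereas 8 of 15 in SORCS3 lie above it; bars without a name are genes without a symbol.

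The shortest host intron, of 1242 bases, belonged to PLXNC1 and held an unnamed gene of its own strand (ENSBTAG00000052916), which covered 40.7% of it. On the opposite strand it was intron 9 of 12 of CHRNE, an acetylcholine receptor gene, of 1.29 kb, with C19H17orf107. LHB, the beta chain of luteinising hormone (ENSBTAG00000038735, chromosome 18, 55571842 to 55573733, minus strand), filled 72.9% of an intron of 2.60 kb in the helicase gene RUVBL2 and lay 3 bases from a host exon. PTI covered 82.8% of an intron of an unnamed host, the largest share of all, and the apolipoprotein gene APOC3 covered 78.9% of an intron of APOA4. LXN, a carboxypeptidase inhibitor, came within 36 bases of an exon of GFM1, and TMEM210 within 51 bases of an exon of LRRC26. The longest members after LRRTM3 were 2 genes without a symbol, ENSBTAG00000048492 in TAFA1 with 80804 bases and ENSBTAG00000038755 with 77629 bases, followed by RAB8B in CA12 with 70033 and KBTBD7 in MTRF1 with 68636 bases.

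Of 20 pairs known as nested from human or other mammals, 8 were nested with a multi-exon member: the 5 leucine-rich repeat pairs, GPR18 and GPR183 in UBAC2, and GPR21 in RABGAP1. Another 3 were nested with a single-exon gene, LRRN3 in IMMP2L, LPAR6 in RB1 and CSTF2T in PRKG1. OMG, EVI2A and EVI2B, which in human lie in an intron of NF1, stood 69.6, 91.7 and 79.8 kb beyond the end of the NF1 model, which had 16 exons over 111 kb. TIMP3 stood 188 kb from the SYN3 model, GPR52 169 kb from RABGAP1L and SLC18A3 17.7 kb from CHAT, and TIMP4 overlapped the SYN2 model in part. TIMP1 and F8A1 were not matched by symbol.

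Members lay on every autosome and on X, with 486 on assembled chromosomes and 11 on unplaced scaffolds. The share of multi-exon genes that were members ran from 0.755% on chromosome 24 (2 genes) to 6.91% on chromosome 26 (25 of 362). Without the 15 members in SORCS3 the share on chromosome 26 was 2.76%. Chromosome 18 held the most members, 48 of 1119 (4.29%).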

How the data were processed

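The deposited file was a gene annotation in gene transfer format, for the cattle assembly ARS-UCD1.2 per the file headers. It lists gene, transcript and exon positions in bases, which belong to no sample. Per the submitters' processing notes, the tools included Seurat, STAR and Cell Ranger 3, with no role given. The sources used here do not say how cattle models were applied to reads from reindeer. The planned comparison of antler and back was not run, because the file used holds no counts.

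Exons were merged over all transcripts of a gene; an intron is a gap between merged exons, numbered from the 5′ end of the host. A member with several hosts was given the shortest. The 3′ UTR is the longest over transcripts. A gene had a symbol where the file gave it a gene name. Members and lists were chosen with earlier results of these data known. The genes named were the extremes of intron length, span, coverage and distance, genes of the largest hosts, members that are hosts, known pairs and list members; other names are marked in the text or were chosen after their values were seen. On a simulated annotation with 1000 hosts, 374 of 374 planted members came out exactly and 0 of 626 decoys were taken. Software was SciPy 1.17.1, matplotlib 3.10.9, pandas 2.3.3 and NumPy 2.4.6, under Python 3.11.15. There were 12 alternatives. Some named genes are not reported here.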

Additional observations from a re-analysis of the deposited data

How the results depend on the processing

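Of 131 values under 12 alternatives, 104 stayed within the interval of the main value (counts: within 1.5 times) and 27 did not. For the longest and first intron, the main values were 70.4% (interval 66.2% to 74.4%) and 27.2% of all 497 members. These include hosts with a single intron, which is longest and first by construction. The 68.8% and 23.1% given above leave such hosts out. The 65.1% below is outside the interval used here but inside that of 68.8% (64.4% to 73.0%). With at least 3 exons there were 288 members in 213 hosts, with a median intron of 44529 bases, 76.7% in the longest intron, a median coverage of 15.9%, 46.5% with a symbol and 44.1% with a 3′ UTR. With a symbol required of members there were 188 in 133 hosts, 26.6% on the same strand, a same-strand median intron of 90983.5 bases, 80.9% in the longest intron, a coverage of 17.9% and 81.4% with a 3′ UTR. With 1 member per host, the median intron was 28188 bases (28094 same strand, 28201 opposite), the coverage 14.5% and the share with a symbol 32.4%. Without introns holding 3 or more members, an alternative chosen after seeing the data, the medians were 26458.5, 25000 and 27443.5 bases, 65.1% lay in the longest intron, the coverage was 14.8%, 31.2% had a symbol and 33.7% a 3′ UTR. Reading only the host transcript with the longest coding sequence put 32.3% in the first intron, against 27.2% of all 497. The same-strand share ran from 26.6% to 40.6% over the alternatives, while the order of the same-strand and opposite-strand medians turned with 1 member per host and without the blocks. Other alternatives (exon-level overlap, own introns of at least 50 bases, assembled chromosomes, named hosts, the longest host, transcript introns, no shared exon base) moved no value outside its interval. No paired analysis was possible because the annotation carries no samples. The 4 subsets above hold fewer genes by construction; beyond that the cause was not tested. Depth plays no part in gene models.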
